A study of Mus musculus with 8 samples.

Results

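The proteasome subunit genes described here were all rows of the deposited count table whose symbol is Psma, Psmb, Psmc or Psmd followed by a number, without Psmb8, Psmb9 and Psmb10, which encode the catalytic subunits of the immunoproteasome. The pattern found 36 of 21154 genes. Of these, 16 belong to the core particle (8 Psma genes of the alpha rings and 8 Psmb genes of the beta rings) and 20 carry Psmc or Psmd symbols of the regulatory particle (6 base ATPases, 3 base subunits without ATPase activity, 8 lid subunits and 3 assembly chaperones). The chaperones Psmd5, Psmd9 and Psmd10 help to build the base and are not part of the finished particle, although their symbols match. Of the 36 genes, 35 passed the filter on low counts and were tested, and Psmb11 did not pass.

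The libraries came from osteoblasts of female Col2.3-GFP mice, in which a fragment of the Col1a1 promoter drives green fluorescent protein in bone-forming cells. GFP-positive cells were sorted from digested bone chips after the marrow had been spun out, so the population is defined by activity of that promoter fragment. Mice aged 8 to 10 weeks had 4 intravenous injections, 1 week apart, of doxorubicin at 5 mg/kg (DOX, 5 libraries) or of phosphate-buffered saline (PBS, 3 libraries), and bone was taken 8 weeks after treatment. All groups share the reporter, the sex and the schedule. The labels name a batch without saying what it stands for: PBS replicate 1 and the first 2 DOX libraries (replicates 1 and 2) form batch 1, and the remaining 5 libraries (PBS replicates 2 and 3, DOX replicates 3 to 5) form batch 2. DOX replicate 1 is titled as doxorubicin but tagged as PBS in its treatment field, and it was counted by its title. The titles call the libraries biological replicates, but nothing says how many animals gave each one, so p-values measure the spread between these libraries.

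The PBS libraries held 40985302 to 44299591 counts each, and the DOX libraries 39419027 to 44151882. The 10 osteoblast markers examined were all detected and held 25.6 to 42.8% of counts in PBS and 27.1 to 39.5% in DOX. Summed markers of erythroid cells, neutrophils, macrophages, B cells, endothelial cells and osteoclasts each stayed at or below 0.0453% of counts in every library. In every library Ebf1 held most of the B cell marker counts and Ctsk most of the osteoclast marker counts, so these sums largely follow single genes. Of the 5 osteoclast markers, 2 were not in the table. Libraries also differed in how strongly short and long transcripts were represented. The deviation from the gene mean, taken as the median over 2965 genes with transcripts below 1500 bases minus the median over 4347 genes above 4000 bases, was 0.12, -0.37 and -0.19 log2 units in PBS replicates 1 to 3 and 0.36, -0.21, -0.14, 0.28 and 0.17 in DOX replicates 1 to 5. The median transcript of the tested core genes was 1165 bases long, that of the regulatory particle genes 1710 bases, that of all tested genes 2812 bases.

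The proteasome degrades proteins that carry ubiquitin chains. Its core particle is a barrel of stacked alpha and beta rings with the proteolytic sites of Psmb5, Psmb6 and Psmb7 inside, and its regulatory particle recognises, unfolds and feeds in the substrate through a ring of ATPases (the base) covered by a lid that removes ubiquitin. Transcription of the subunit genes is known to rise together when proteasome activity is impaired, through the factor encoded by Nfe2l1, which binds antioxidant response elements. In osteoblasts, the proteasome is known for the turnover of Runx2, a transcription factor required for bone formation, and proteasome inhibitors used in myeloma act on bone-forming cells.

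Matches to the letters of the element that Nfe2l1 is known to bind are shown here because the members are known to be transcribed together. RefSeq promoters (GRCm38.p6, windows around each transcription start) matched 29 member genes with 31 windows. The letters TGACNNNGC, the core of an antioxidant response element, stood on either strand in 5 of these 31 windows (16.1%), those of Psmb5, Psmb6, Psmc6, Psmd12 and Psmd9, against 12.4% of all 32851 windows and 14.2% of the windows of tested genes. CCAAT stood in 12 windows (38.7%, against 37.4% of all windows and 37.5% of the windows of tested genes), in 7 of 13 core and 5 of 18 regulatory particle windows. GGGCGG, a GC box, stood in 18 (58.1%, against 35.7% of all windows and 60.6% of the windows of tested genes), in 5 of 13 core and 13 of 18 regulatory particle windows. A match is a description of letters only. The stretches before the start of 2 catalytic subunit genes and of Psma7, the core gene with the highest fold change, follow 5′ to 3′ on the gene's strand. Capitals mark TGACNNNGC in Psmb5 (chr14:54618026-54618125, minus strand, bases 130 to 31 before the start) and in Psmb6 (chr11:70525257-70525356, plus strand, bases 100 to 1 before the start), and GC boxes on the opposite strand in Psma7 (chr2:180042465-180042564, minus strand, bases 100 to 1 before the start).
Psmb5: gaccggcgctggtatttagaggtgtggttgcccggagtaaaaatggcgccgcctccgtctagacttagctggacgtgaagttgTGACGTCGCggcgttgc
Psmb6: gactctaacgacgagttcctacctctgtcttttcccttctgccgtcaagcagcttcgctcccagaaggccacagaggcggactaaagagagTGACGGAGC
Psma7: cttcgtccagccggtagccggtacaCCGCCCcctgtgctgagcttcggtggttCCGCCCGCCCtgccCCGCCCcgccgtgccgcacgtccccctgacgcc
The match began 47 bases before the start in Psmb5 and 9 bases before it in Psmb6, and the Psma7 stretch held 4 GC boxes, a pair of which overlapped, in a sequence of 76% G and C.

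Levels per length, as CPM (counts scaled to a common library total) per kilobase of transcript, averaged over the 8 libraries, spanned 9.21-fold over the 31 tested subunit genes other than Psma8. Psmb6, the caspase-like catalytic subunit, was highest at 224 CPM per kilobase, followed by Psma7 at 177, Psmb3 at 135 and Psmb2 at 120. The lid gene Psmd11 was lowest at 24.4, next to Psmb7, the trypsin-like catalytic subunit, at 28.1. The 3 catalytic genes therefore lay far apart, with Psmb5, the chymotrypsin-like subunit, at 46.2 CPM per kilobase. The medians of the classes were 89.2 for the beta genes, 58.4 for the alpha genes, 55.3 for the ATPases, 48.2 for the other base subunits and 41.1 for the lid. The 3 chaperones lay below all 31 of these subunits, between 8.76 and 11.8. Lengths were those of 1 GENCODE transcript per gene, so a gene with several isoforms can be misplaced in this order.

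**Figure D1:**
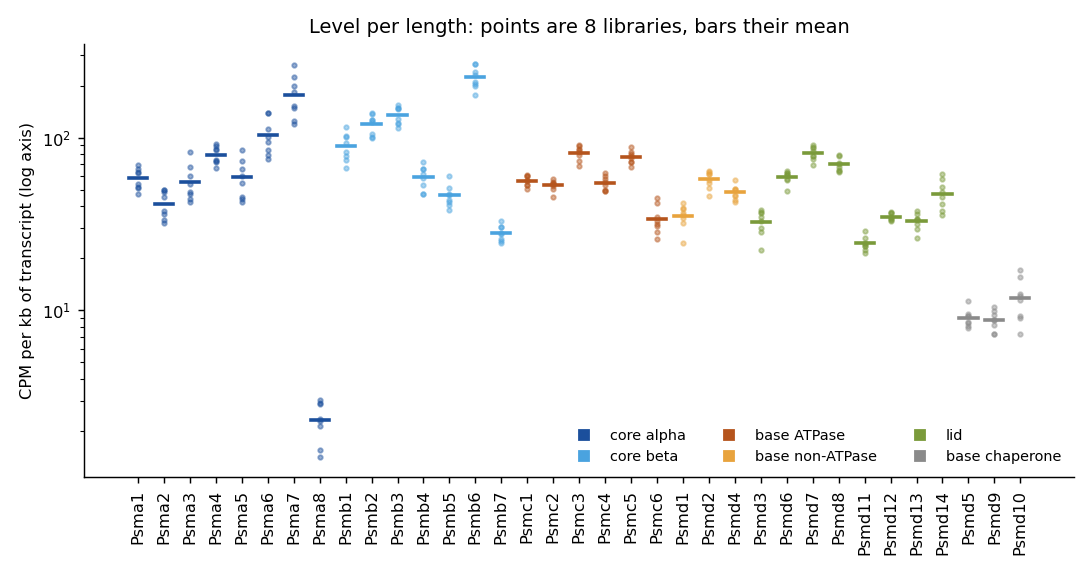
Level of each tested proteasome gene in CPM per kilobase of transcript on a log axis, grouped by class, with 1 point per library and the mean over the 8 libraries. Psmb6 was highest at 224, Psmd11 lowest at 24.4 among the subunit genes other than Psma8, and Psma8 stood at 2.32.

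A pair of core genes known from other tissues stood at the bottom. Psma8, the alpha subunit that replaces Psma7 in the testis, was counted at 4.94, 5.13 and 3.88 CPM in PBS replicates 1 to 3 and at 2.63, 4.84, 2.39, 3.63 and 3.96 CPM in DOX replicates 1 to 5. Its counts were 1.1 to 4.67% of those of Psma7, a close paralog, and reads that the authors' counting could have split between the paralogs make them uncertain. Psmb11, the beta subunit of the thymus proteasome, had 15 counts in DOX replicate 1, 9 in DOX replicate 2 and 0 in the other 6 libraries. A count of 0 allows a level of up to 0.0563 to 0.085 CPM in those libraries (3 counts per library, counting error only), and the libraries with counts stood at 0.303 and 0.223 CPM. Both of them belong to batch 1.

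The first question of the design is whether doxorubicin changed these genes. No proteasome gene passed the test, and the point estimates leaned towards slightly higher levels in DOX. In edgeR's quasi-likelihood test with batch as a term, 0 of 35 genes had an adjusted p under 0.05 (0% of all 15373 genes did), the smallest adjusted p was 0.995, and 0 of 35 had an unadjusted p under 0.05 (3.71% of all genes did). By the point estimate 30 of 35 were higher in DOX (53.0% of all genes were), which became 17 of 35 after the trend of each library with transcript length and GC content was removed. In 0 of 35 genes did all 5 DOX libraries stand above all 3 PBS libraries (1.24% of all genes did), and in 0 did they stand below (1.19% of all genes). DESeq2 gave 0 genes with an adjusted p under 0.05 (0.117% of all genes) and 0 at an unadjusted p under 0.05 (4.79%). limma-voom with quality weights gave 0 adjusted calls (0% of all genes) and 8 members at an unadjusted p under 0.05 (10.2% of all genes). All 8 were higher in DOX (4.29% of all genes were), and 6 of them belong to the core.

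**Figure D2:**
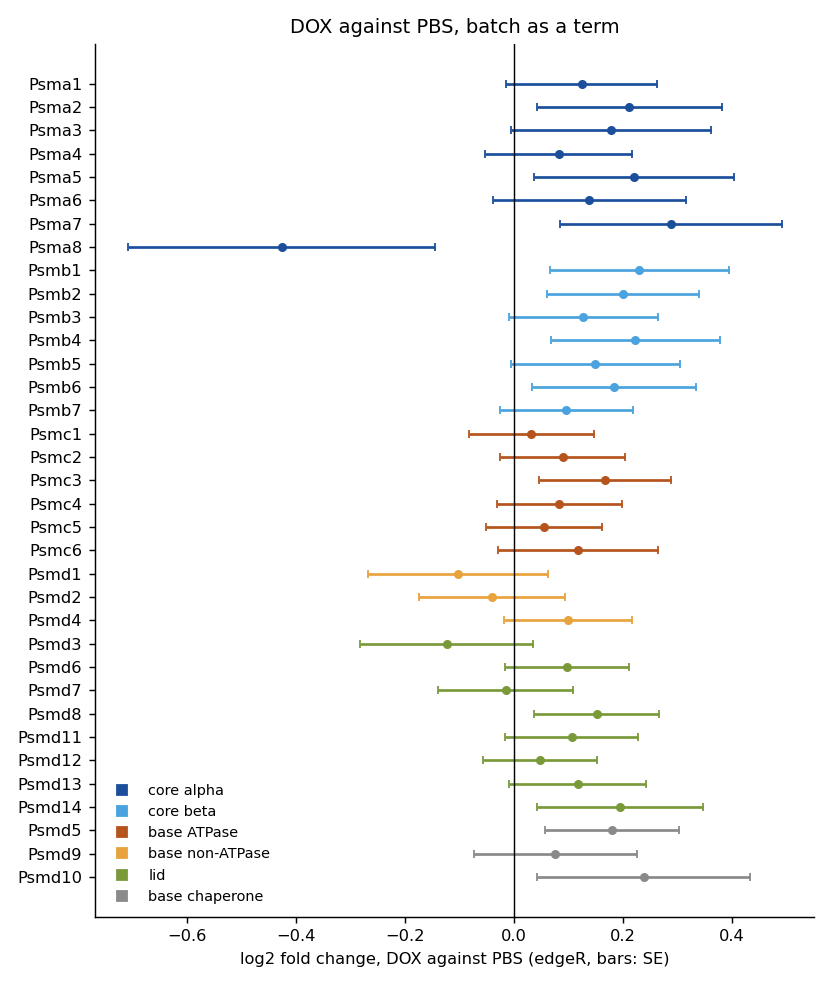
log2 fold change of each tested proteasome gene, DOX against PBS with batch as a term, with its standard error (3 PBS and 5 DOX libraries), by class. Of 35 genes 30 lie above 0, from -0.43 for Psma8 to 0.29 for Psma7, and 17 of 35 do so after correction for transcript length and GC content.

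Among the alpha ring genes, 7 of 8 had a fold change above 0, with a median of 0.18 over the 7 without Psma8. Psma7 stood at 205, 109.7 and 115 CPM in PBS replicates 1 to 3 and at 239, 139, 136, 183 and 167 CPM in DOX replicates 1 to 5. The groups overlapped, with DOX replicate 1 and PBS replicate 1 highest and PBS replicates 2 and 3 lowest. The PBS mean of Psma7 was 143 ± 53.8 CPM (SD, n = 3) against 173 ± 41.9 CPM for DOX (SD, n = 5), and its log2 fold change was 0.29 ± 0.20 (SE; 95% interval -0.17 to 0.74; edgeR adjusted p = 0.995). It was 0.54 without PBS replicate 1 and 0.19 without PBS replicate 2. Taking DOX replicate 1 as PBS, as its treatment tag says, gave 0.12 for Psma7. Psma8 went the other way, with a log2 fold change of -0.43 ± 0.28 (SE; 95% interval -1.05 to 0.20; edgeR adjusted p = 0.995), and had the smallest unadjusted p of all members, 0.161 in edgeR.

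All 7 tested beta ring genes had a fold change above 0, with a median of 0.18 and a range of 0.096 to 0.23. Psmb5, the chymotrypsin-like subunit and the main target of bortezomib, stood at 45.9, 34.0 and 36.7 CPM in PBS replicates 1 to 3 and at 41.7, 39.2, 38.1, 54.2 and 42.6 CPM in DOX replicates 1 to 5. DOX replicate 4 was highest and PBS replicate 2 lowest, and PBS replicate 1 lay within the DOX range. The log2 fold change of Psmb5 was 0.15 ± 0.16 (SE; 95% interval -0.20 to 0.50; edgeR adjusted p = 0.995), and it was 0.037 without DOX replicate 4 and 0.36 without PBS replicate 1.

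Psmb6 stood at 192, 140.4 and 162 CPM in PBS replicates 1 to 3 and at 213.5, 159.5, 167, 213.0 and 185 CPM in DOX replicates 1 to 5. PBS replicates 1 and 3 lay within the DOX range and PBS replicate 2 below it, and its log2 fold change was 0.18 ± 0.15 (SE; edgeR adjusted p = 0.995), or 0.088 without PBS replicate 2 and 0.32 without PBS replicate 1. Psmb7 was the steadiest catalytic gene, at 32.3, 29.1 and 32.3 CPM in PBS replicates 1 to 3 and at 28.5, 29.9, 34.98, 35.4 and 38.0 CPM in DOX replicates 1 to 5. DOX replicate 1 was its lowest library and DOX replicate 5 its highest. The log2 fold change of Psmb7 was 0.096 ± 0.12 (SE; edgeR adjusted p = 0.995), and it was -0.059 after the length and GC correction, 0.013 without PBS replicate 2 and 0.24 without PBS replicate 1.

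Psmb2, a beta subunit without a proteolytic site, had the smallest unadjusted p of its class. Psmb2 stood at 106, 85.8 and 90.5 CPM in PBS replicates 1 to 3 and at 117, 87.0, 108, 119 and 109 CPM in DOX replicates 1 to 5, so that PBS replicates 2 and 3 and DOX replicate 2 were the 3 lowest. Its log2 fold change was 0.20 ± 0.14 (SE; 95% interval -0.11 to 0.51; edgeR adjusted p = 0.995), or 0.13 without PBS replicate 2 and 0.36 without PBS replicate 1.

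The base ATPases, which unfold the substrate, all had fold changes above 0 (6 of 6), but small ones, with a median of 0.087 and a range of 0.032 to 0.17. Psmc3 had the highest level and the smallest unadjusted p of them. It stood at 141, 112 and 120 CPM in PBS replicates 1 to 3 and at 135, 129.7, 139, 148 and 147 CPM in DOX replicates 1 to 5, with PBS replicate 1 inside the DOX range and the other PBS libraries below it. The log2 fold change of Psmc3 was 0.17 ± 0.12 (SE; 95% interval -0.10 to 0.44; edgeR adjusted p = 0.995), or 0.093 without PBS replicate 2 and 0.33 without PBS replicate 1.

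The remaining base and lid genes were divided. Of the 3 base scaffold and ubiquitin receptor genes, only Psmd4, a ubiquitin receptor, had a fold change above 0 (0.099), and the scaffold genes Psmd1 and Psmd2 lay at -0.10 and -0.039. Psmd2, with the highest mean log2 CPM of the base and lid genes without ATPase activity, stood at 151, 182 and 187 CPM in PBS replicates 1 to 3 and at 136, 189, 181, 162 and 168 CPM in DOX replicates 1 to 5. Its low libraries were PBS replicate 1 and DOX replicate 1, the very ones in which Psma7 was highest, and its log2 fold change was -0.039 ± 0.13 (SE; edgeR adjusted p = 0.995). In the lid 6 of 8 genes had fold changes above 0, with a median of 0.10, and the exceptions were Psmd3 at -0.12 and Psmd7 at -0.015.

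Psmd8, a lid subunit, had the smallest unadjusted p of the base and lid genes without ATPase activity. Psmd8 stood at 104, 97.7 and 101 CPM in PBS replicates 1 to 3 and at 122, 99.2, 108, 120.3 and 109.8 CPM in DOX replicates 1 to 5. The DOX libraries other than replicate 2 lay above every PBS library, and the log2 fold change was 0.15 ± 0.12 (SE; 95% interval -0.10 to 0.41; edgeR adjusted p = 0.995). All 3 chaperones had fold changes above 0, with Psmd10 highest at 0.24 ± 0.19 (SE; edgeR adjusted p = 0.995), or 0.094 without PBS replicate 2 and 0.47 without PBS replicate 1.

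Over the whole core the median log2 fold change was 0.18 (14 of 15 above 0), over the regulatory particle 0.094 (16 of 20 above 0), and over all tested genes 0.017. After correction for transcript length and GC content these medians were 0.022, -0.027 and -0.033. The short-minus-long deviation given above moved in the same direction: its mean was -0.15 ± 0.25 for PBS (SD, n = 3) against 0.092 ± 0.25 for DOX (SD, n = 5). Its part in the result beyond the correction was not tested. Without PBS replicate 1 the core and regulatory particle medians were 0.36 and 0.18, and without PBS replicate 2 they were 0.088 and 0.017. The length and GC correction also lowered the fold changes of single genes. Psma7 was then at 0.119, Psmb2 at 0.0362, Psmb4 at 0.0932, Psmb5 at 0.00219 and Psmb6 at 0.0225. Psmc3 came to 0.0721, Psmd8 to 0.0445, Psmd10 to 0.0273, Psmd2 to -0.0617 and Psma8 to -0.592. In data simulated on these libraries edgeR called 89 of 100 genes changed by 1 log2 unit and 12 of 100 changed by 0.5. Smaller changes, such as those estimated here, were not simulated. The changed genes were drawn from the more highly expressed ones, a range that leaves out Psma8, Psmd9 and Psmd10. No batch effect or length trend was simulated, so these shares need not hold for the members. In bulk libraries a change in RNA per cell and a change in the kinds of cells sorted cannot be told apart.

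**Figure D3:**
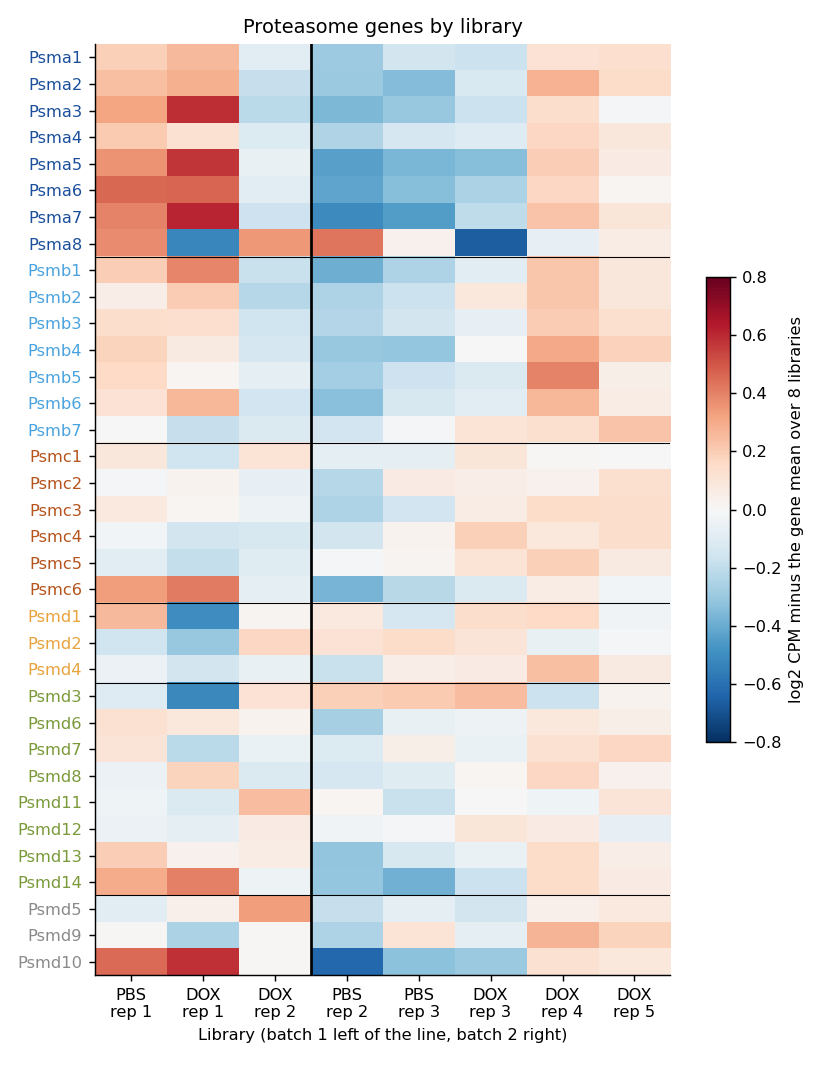
log2 CPM of each tested proteasome gene minus its mean over the 8 libraries, with libraries in columns (batch 1 left of the line, batch 2 right) and genes in rows by class. Each of the 7 alpha ring genes other than Psma8 has its highest library in PBS replicate 1 or DOX replicate 1 and its lowest in PBS replicate 2 or 3, and for 5 of the 7 both replicates 1 lead, while Psmd2 and Psmd3 are low in DOX replicate 1.

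The spread between libraries was widest in the alpha ring. The median standard deviation of log2 CPM over the 8 libraries was 0.33 for the 7 alpha genes other than Psma8, 0.21 for the beta genes, 0.13 for the ATPases and 0.13 for the lid, against 0.34 for all tested genes. Psmd12, a lid subunit, varied least, with a highest library 1.13 times the lowest, and Psmd10, the chaperone also called gankyrin, varied most, at 2.32 times. Highest levels fell in PBS replicate 1 or DOX replicate 1 for all 7 of these alpha genes and for 16 of the 35 genes (40.7% of all genes). Lowest levels fell in PBS replicate 2 or 3 for 24 of 35 (26.9% of all genes), 20 of them in PBS replicate 2. DOX replicate 1 was the lowest library for 10 genes (19.5% of all genes), 9 of them in the regulatory particle, so the library that was at the top for 6 of the 7 alpha genes was at the bottom for 9 of the 20 regulatory particle genes.

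The next comparison was between the batches, with treatment held in the same fit. No member passed the adjusted threshold, and the alpha ring had the lowest median of the classes in batch 2 relative to batch 1. In edgeR's test 0 of 35 genes had an adjusted p under 0.05 (0.0911% of all genes did), 6 were lower in batch 2 at an unadjusted p under 0.05 (7.79% of all genes) and 0 were higher (6.82% of all genes), and DESeq2 also gave 0 adjusted calls among the members (2.45% of all genes). The 6 were Psma5, Psma6, Psma7, the ATPase gene Psmc6, the lid deubiquitinase gene Psmd14 and the chaperone gene Psmd10. The core median was -0.15 (14 of 15 below 0; 51.6% of all genes were), or 0.035 after the length and GC correction, the median of the 7 alpha genes without Psma8 was -0.40, and the regulatory particle median was 0.016 (10 of 20 below 0).

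Psmd10, which had the smallest p of this test, stood at 22.3, 24.4 and 16.4 CPM in batch 1 (PBS replicate 1, DOX replicates 1 and 2) and at 10.5, 12.97, 13.2, 17.7 and 17.3 CPM in batch 2 (PBS replicates 2 and 3, DOX replicates 3 to 5). Batch 1 was higher on average, but DOX replicate 2 lay within the range of batch 2. The log2 difference, batch 2 minus batch 1, was -0.56 ± 0.19 (SE; edgeR unadjusted p = 0.0150, adjusted p = 0.256). Psma7 differed by -0.47 ± 0.20 (SE; edgeR adjusted p = 0.323) and averaged 194 CPM in batch 1 and 142 CPM in batch 2. After correction for length and GC content the regulatory particle median was 0.12, and that of all genes 0.068. Without PBS replicate 1 the core median was 0.015. Summed erythroid and endothelial markers also differed between the batches. All 7 erythroid markers were in the table and together held 0.00358 to 0.0202% of counts in batch 1 and 0.000236 to 0.000858% in batch 2. Slc4a1 was at 0 in PBS replicate 3 and DOX replicate 5. The 5 endothelial markers held 0.000424 to 0.00194% in batch 1 and 5.87e-05 to 0.000152% in batch 2. Cdh5 was at 0 in PBS replicates 2 and 3 and DOX replicate 3. Tek was at 0 in PBS replicate 3 and DOX replicate 3, but also in DOX replicate 1 of batch 1. The summed neutrophil, macrophage, B cell and osteoclast markers overlapped between the batches. The part of all these markers in the batch differences was not tested. Without DOX replicate 2, 7 members passed the adjusted threshold, all lower in batch 2 (2.74% of all genes): Psma3, Psma5, Psma6, Psma7, Psmc6, Psmd10 and Psmd14.

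Within the batches the DOX and PBS means stood in opposite order for most members. In batch 1, the mean of the 2 DOX libraries lay below the 1 PBS library for 30 of 35 genes (49.9% of all genes), including all 15 core genes, with a median difference of -0.15 log2 units in the core and -0.093 in the regulatory particle. In batch 2, the mean of the 3 DOX libraries lay above that of the 2 PBS libraries for 32 of 35 genes (51.7% of all genes), with medians of 0.33 in the core and 0.17 in the regulatory particle, where the mean over the regulatory particle was below 0 after the length and GC correction. All 3 DOX libraries of batch 2 stood above both PBS libraries for 24 of 35 genes (16.0% of all genes), 13 of 15 in the core and 11 of 20 in the regulatory particle. Psmd2 alone of the 35 stood below in all 3 (15.3% of all genes). The single libraries of batch 1 were less clearly ordered. PBS replicate 1 stood above both DOX libraries for 15 of 35 genes (30.0% of all genes), 6 of 15 in the core and 9 of 20 in the regulatory particle. By the means, 28 of 35 genes were lower in DOX in batch 1 and higher in batch 2 (29.3% of all genes).

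**Figure D4:**
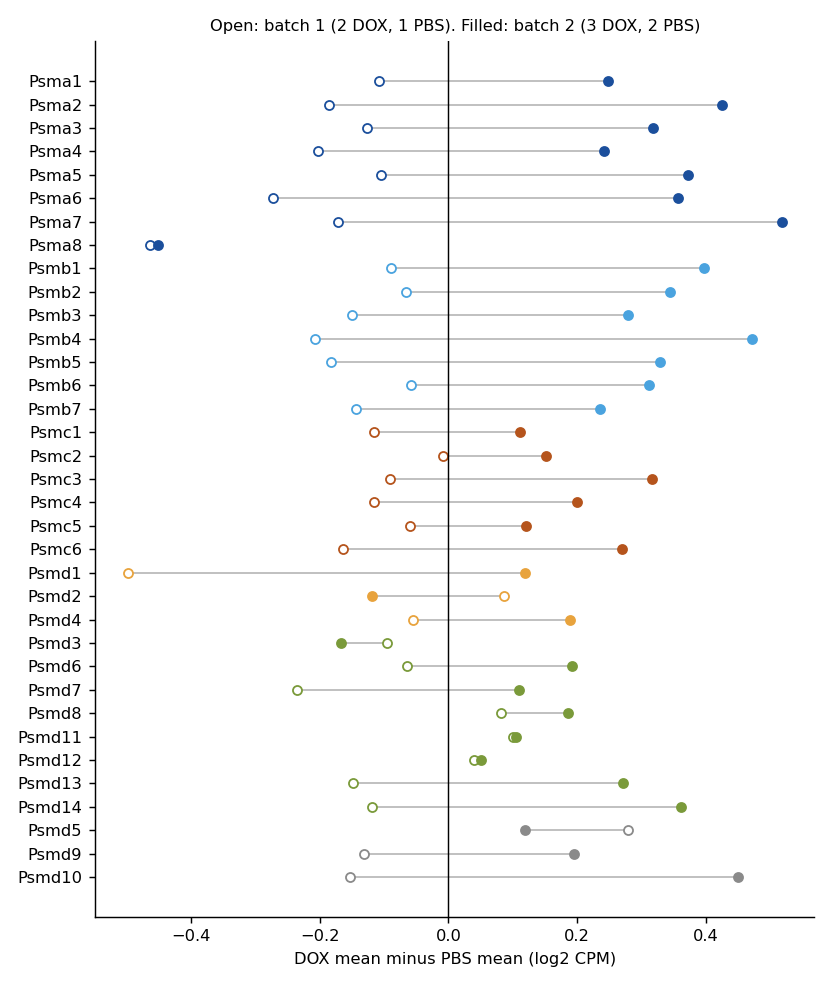
DOX mean minus PBS mean in log2 CPM for each tested proteasome gene, with open points for batch 1 (2 DOX libraries, 1 PBS library) and filled points for batch 2 (3 DOX, 2 PBS). Open points lie below 0 for 30 of 35 genes and filled points above 0 for 32 of 35, and after the length and GC correction the regulatory particle mean was 0.030 lower in DOX in both batches.

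The test of this difference between batches called nothing. For the interaction of treatment and batch, edgeR gave 0 adjusted calls among the members (0% of all genes), 1 gene at an unadjusted p under 0.05 (11.7% of all genes) and 30 of 35 estimates above 0 (48.8% of all genes), and DESeq2 gave 0 adjusted calls among the members (1.27% of all genes) and 1 at an unadjusted p under 0.05 (9.64%). That gene was Psmb4, a beta subunit, at 77.9, 72.4 and 62.9 CPM in PBS replicate 1 and DOX replicates 1 and 2 of batch 1, and at 56.0, 55.6, 69.2, 85.2 and 78.3 CPM in PBS replicates 2 and 3 and DOX replicates 3 to 5 of batch 2. The 3 DOX libraries lay above both PBS libraries in batch 2 and both lay below the PBS library in batch 1. Its interaction was 0.68 ± 0.24 log2 units (SE; edgeR unadjusted p = 0.0183, adjusted p = 0.331), and its overall log2 fold change was 0.22 ± 0.16 (SE; edgeR adjusted p = 0.995), or 0.13 without PBS replicate 3 and 0.49 without PBS replicate 1. The batch 1 side of every such estimate rests on PBS replicate 1 alone, and without DOX replicate 1 there were 15 members at an unadjusted p under 0.05 (19.9% of all genes) and 0 adjusted calls among them (0.0671% of all genes).

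In batch 2 alone, edgeR placed 15 of 35 genes higher in DOX at an unadjusted p under 0.05 (6.15% of all genes), 10 of them in the core, and 0 passed the adjusted threshold (0% of all genes). Other measures moved with these libraries. The short-minus-long deviation of batch 2 averaged -0.28 ± 0.12 over its PBS libraries (SD, n = 2) against 0.10 ± 0.22 over its DOX libraries (SD, n = 3), and Col1a1 and Col1a2, which encode type I collagen, held 39.1 ± 0.567% and 29.2 ± 3.93% of counts. After the length and GC correction, the mean log2 CPM of the core genes differed between DOX and PBS by 0.019 in batch 2 and by -0.13 in batch 1, where it had differed by 0.29 and -0.17 before. The corrected regulatory particle mean differed by -0.030 in both batches. The part of collagen share in these differences was not tested.

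The balance of core and regulatory particle was measured as the mean log2 CPM of the tested core genes minus that of the tested regulatory particle genes. It was 0.20, -0.076 and -0.12 in PBS replicates 1 to 3 and 0.30, -0.089, -0.11, 0.15 and 0.073 in DOX replicates 1 to 5. Libraries of both groups stood at both ends, with DOX replicate 1 and PBS replicate 1 highest and PBS replicate 3 and DOX replicate 3 lowest. The PBS mean of this balance was 0.0037 ± 0.17 (SD, n = 3) and the DOX mean 0.064 ± 0.17 (SD, n = 5), a difference of 0.060 that is smaller than the spread within either group. That difference was -0.095 in batch 1 and 0.13 in batch 2, and with DOX replicate 1 counted as PBS it was -0.074. It was 0.00073 without DOX replicate 1 and 0.16 without PBS replicate 1. With all libraries it was 0.102 when Psma8 was left out of the core, and 0.0774 when the 3 chaperones were left out of the regulatory particle.

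The same 4 libraries that led in this balance were the 4 with a positive short-minus-long deviation. After removal of the length and GC trend the balance had its low at -0.070 (PBS replicate 3) and its high at 0.165 (PBS replicate 1 and DOX replicate 1 alike), and the difference between DOX and PBS was 0.0018. PBS replicate 1 and DOX replicate 1 therefore were the 2 highest before and after the correction. All 36 proteasome genes together took 0.444, 0.222 and 0.228% of counts in PBS replicates 1 to 3 and 0.43, 0.278, 0.279, 0.359 and 0.332% in DOX replicates 1 to 5, where the collagen genes Col1a1 and Col1a2 took 19.1, 39.5 and 38.7% and 23.2, 35.5, 33.6, 26 and 28%. The order of the libraries by proteasome share was the reverse of their order by collagen share; both are shares of the same total, and the relation was not tested.

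**Figure D5:**
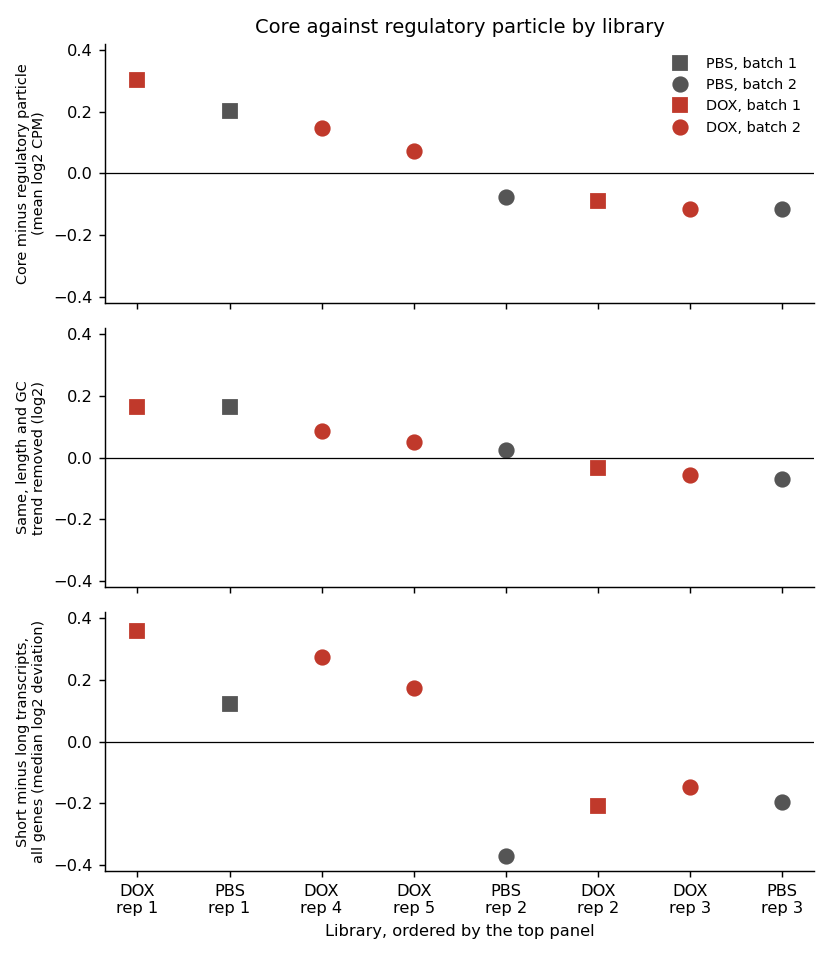
Mean log2 CPM of core genes minus that of regulatory particle genes in each library (top), the same after removal of the transcript length and GC trend (middle) and the short-minus-long deviation of all genes in log2 units (bottom). DOX replicate 1 (0.30) and PBS replicate 1 (0.20) are highest before correction, and the DOX minus PBS difference of 0.060 becomes 0.0018 after it.

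The wider pathway was described by lists of known genes. No gene of these lists had an adjusted p under 0.05 in edgeR's DOX against PBS test, and none had an unadjusted p under 0.05. The immunoproteasome genes, which replace the catalytic subunits on exposure to interferon, all had fold changes above 0 (3 of 3, median 0.38). Psmb9, which takes the place of Psmb6, stood at 10.0, 9.3 and 11.5 CPM in PBS replicates 1 to 3 and at 11.4, 12.1, 10.4, 20.4 and 18.1 CPM in DOX replicates 1 to 5. DOX replicates 4 and 5 were high and the other 3 DOX libraries lay near or inside the PBS range, and the log2 fold change was 0.50 ± 0.23 (SE; edgeR unadjusted p = 0.0522, adjusted p = 0.995).

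Psmb8, which takes the place of Psmb5, and Psmb10, which takes that of Psmb7, had log2 fold changes of 0.38 ± 0.27 and 0.21 ± 0.20 (SE; edgeR adjusted p = 0.995 for each). The mean log2 CPM of the 3 immunoproteasome genes minus that of the 3 catalytic genes was -2.09, -2.13 and -2.05 in PBS replicates 1 to 3 and -2.21, -1.79, -2.22, -1.70 and -1.57 in DOX replicates 1 to 5. DOX replicates 1 and 3 lay below the PBS values and DOX replicates 2, 4 and 5 above them. Per length, the means over the 8 libraries were 8.08 CPM per kilobase for Psmb8, 9.54 for Psmb9 and 19.4 for Psmb10, each below the 28.1 to 224 of the constitutive catalytic genes.

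Genes around the particle showed no common direction. Core assembly genes had fold changes above 0 in 4 of 5, the ubiquitin genes, some of which share reads with processed pseudogenes, in 4 of 4 (median 0.25), the subunit genes Adrm1 and Sem1, which the symbol pattern misses, in 2 of 2, and the activator and inhibitor genes in 2 of 5. Regulators of proteasome transcription did so in 2 of 9 (median -0.14), factors that handle ubiquitin at the proteasome in 2 of 13 (median -0.086), the genes of the p97 unfoldase and its cofactors in 1 of 6, and the ubiquitin-activating enzymes in 0 of 2. The median transcript was 1044 bases long for core assembly and 1145 for the ubiquitin genes, against 3097 for the regulators, 3810 for ubiquitin handling and 3718 for p97.

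Nfe2l1, which encodes the main activator of proteasome genes, stood at 121, 153.5 and 159.8 CPM in PBS replicates 1 to 3 and at 90.9, 149.6, 151, 105 and 122 CPM in DOX replicates 1 to 5. It was lowest in DOX replicates 1 and 4 and in PBS replicate 1, libraries in which the core genes were high. In these libraries the short-minus-long deviation was positive (0.36, 0.28 and 0.12), and the Nfe2l1 transcript, at 4654 bases, is a long one. The part of transcript length in this order was not tested. The log2 fold change of Nfe2l1 was -0.21 ± 0.18 (SE; 95% interval -0.61 to 0.20; edgeR adjusted p = 0.995). The activity of this factor is set largely at the protein level, which these counts do not measure.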

How the data were processed

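RNA-seq of 8 osteoblast libraries (3 PBS, 5 DOX) was used. The authors deposited unnormalised counts for 21154 gene symbols, the smallest gene total being 10. The tools named are STAR 2.7.9a, featureCounts 2.0.1, Trim Galore 0.6.6, SAMtools 1.17, FastQC 0.11.5 and MultiQC 1.7, and the genome build is GRCm39, per the submitters' processing notes. For annotation, strandedness and reads that fit more than 1 gene, the settings were not given in the sources used here, and the cDNA kit named in the labels does not mark strand.

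The main tests were run with edgeR 4.0.16 under R 4.3.3 (TMM scaling, filterByExpr, 15373 genes, terms for batch and group, two-sided quasi-likelihood tests, Benjamini-Hochberg adjustment over all genes tested). limma 3.58.1 (voom with quality weights) and DESeq2 1.42.0 were alternatives, with other scalings, filters, a replicate block, each library left out, batch 2 alone, DOX replicate 1 counted as PBS, and removal of each library's trend with transcript length and GC content. Transcript lengths and GC came from GENCODE for GRCm38, matched by symbol for all 36 members and 97.7% of tested genes, and no coordinates were taken from it. Promoters were from RefSeq GRCm38.p6. CPM values use TMM-scaled library sizes, and log2 CPM a prior count of 2. Plots used Python 3.11.15 and matplotlib 3.10.9. The fit was tested on simulated data: 100 genes changed by 1 log2 unit and 100 by 0.5, with 6 false calls among 15373 genes.

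Values in every library are given for the 3 catalytic genes, for the gene of smallest p and of highest mean log2 CPM among the alpha, the beta, the ATPase and the non-ATPase base and lid genes, for the genes of smallest p in the batch and interaction tests, and for Psma8 and Psmb11. The members and lists were chosen with earlier results of these data known. At these library totals, counting error is small beside the spread between libraries, and stated floors cover counting error only.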

Additional observations from a re-analysis of the deposited data

Results flagged for a closer look

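Of 46 values per library checked within the 5 DOX libraries, 3 had a library far from the others, where chance alone flags about 1 in 20 groups. Psmb5 was at 54.2 CPM in DOX replicate 4, with the other DOX libraries between 38.1 and 42.6 CPM, a gap of 0.72 of the whole range against a critical value of 0.71. The mean log2 CPM of the base genes without ATPase activity (Psmd1, Psmd2, Psmd4) was 6.4 in DOX replicate 1 and 6.73 to 6.83 in the others, a gap of 0.765 of the range. Psmd1 led this, at 76.8 CPM in DOX replicate 1 and 107 to 121 CPM in the other DOX libraries. The mean log2 CPM of the chaperone genes (Psmd5, Psmd9, Psmd10) was 4.44 in DOX replicate 3 and 4.73 to 4.76 in the others, a gap of 0.912 of the range.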

How the results depend on the processing

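No member passed the adjusted threshold for DOX against PBS under any of 20 alternatives, and the core median stayed above 0 in all of them. The length and GC correction left 17 of 35 members higher in DOX, 9 of 15 in the core, and turned the regulatory particle median to -0.027 and Psmb7 to -0.0591. With this correction the core median was 0.0225, but the mean log2 CPM of the core genes, taken without a batch term, differed between DOX and PBS by -0.0338. With DOX replicate 1 counted as PBS, the core minus regulatory particle difference turned to -0.0741 and Psmd2 to 0.064. Leaving out each library in turn, Psmd2 ran from -0.126 (without DOX replicate 2) to 0.00894 (without DOX replicate 1). The same gave 28 to 33 members higher, a core median of 0.0875 to 0.355, a regulatory particle median of 0.0172 to 0.176, a core minus regulatory particle difference of 0.000727 (without DOX replicate 1) to 0.16 (without PBS replicate 1), 0 to 7 members called between batches (7 without DOX replicate 2) and 0 called for the interaction. Members at an unadjusted p under 0.05 in edgeR numbered 5 when PBS replicate 1 was left out (higher in DOX: 3.70% of all genes), 7 when DOX replicate 2 was (5.41%) and 11 with replicate 1 of both groups left out (5.62%), against 0 with all libraries (1.98%); all of these members were higher in DOX. Chosen after seeing the data were that last setting, the length and GC correction of the batch and core minus regulatory particle results, the latter in batch 2 alone and without Psma8, and the interaction with each library left out other than DOX replicate 1.

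In the fit with a replicate block instead of batch, 0 members were called, 27 of 35 were higher, the core and regulatory particle medians were 0.126 and 0.0581, and Psmb7 turned to -0.00834. No label ties the numbers to a shared litter or day, so the numbers were not taken as pairs. Same-numbered libraries correlated at 0.248, -0.054 and 0.245, and 2 of 3 numbers correlated best with their own. These few values do not settle whether the numbers mark pairs. Without PBS replicate 1, batch 1 holds no PBS library, so its DOX libraries add nothing to the group difference and the interaction could not be fitted. DOX replicate 1 rests on its title against its treatment tag.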
